A study of Caenorhabditis elegans with 2 samples.

Results

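Cilium assembly and transport genes were examined for promoter peaks of the zinc finger transcription factor LSY-2 in L2 larvae of Caenorhabditis elegans. The set held 36 named genes of 19973 protein-coding genes on the chromosomes, and all 36 symbols matched the annotation. They were listed by name as components of intraflagellar transport, of the BBSome, of the transition zone and as cilium regulators. The naming rule used no peak value, but the set was put together with earlier results of these data known. LSY-2 was mapped by chromatin immunoprecipitation with sequencing (ChIP-seq) in 1 group of 2 biological replicates. The chromatin came from whole mixed-sex larvae of strain OP367, genotype unc-119(tm4063) III; wgIs367, whose integrated transgene makes LSY-2 fused C-terminally to GFP and FLAG, and was sheared by sonication. There was no second condition, so the comparisons were among groups of genes within the same peak lists. Whole animals hold many cell types, and a site used in few cells and a site weakly used in many cannot be told apart here.

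In this nematode cilia are found at the dendrite tips of sensory neurons, where they are non-motile antennae for chemical and mechanical cues. They are built by intraflagellar transport (IFT), in which kinesin motors carry trains of IFT-A and IFT-B particles to the tip and a dynein motor brings them back. The BBSome is a cargo adapter on these trains, and the transition zone is a gate at the cilium base. DAF-19, the worm RFX factor, activates many of these genes through a promoter element called the X-box.

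The peaks were read from the authors' optimal list of 6312 peaks on the build ce11. Each peak carried the authors' own score, of a scale not given in the sources used here. Scores ran between 58 and 20472 with a median of 123, and a rank of 1 marked the highest. A gene had a promoter peak when a peak's summit lay 1000 bp upstream to 200 bp downstream of its 5′ end. No read counts were used, so the depth behind a score is unknown, and intervals cover the counting of genes only.

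LSY-2 had a promoter peak at 9 of the 36 cilium genes (25%, exact Clopper-Pearson 95% interval 12.1 to 42.2), against 3831 of 19973 protein-coding genes (19.2%). The share of the cilium genes was therefore near the background. The 9 genes were daf-10 and dyf-2 of IFT-A, dyf-3 and ift-81 of IFT-B, klp-11 and kap-1 of kinesin-II, bbs-9 of the BBSome, the RFX gene daf-19 and the small GTPase gene arl-13. Their median score was 173, with a lowest of 70.5 at arl-13 and a highest of 754 at dyf-3, against a median of 200 for the strongest promoter peak over all genes that had one. When each summit was given only to the gene with the nearest 5′ end, 5 of 36 remained (13.9%), against 14.5% of all genes. When any base of a peak in the window sufficed, 9 of 36 were counted, against 20.5% of all genes.

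**Figure D1:**
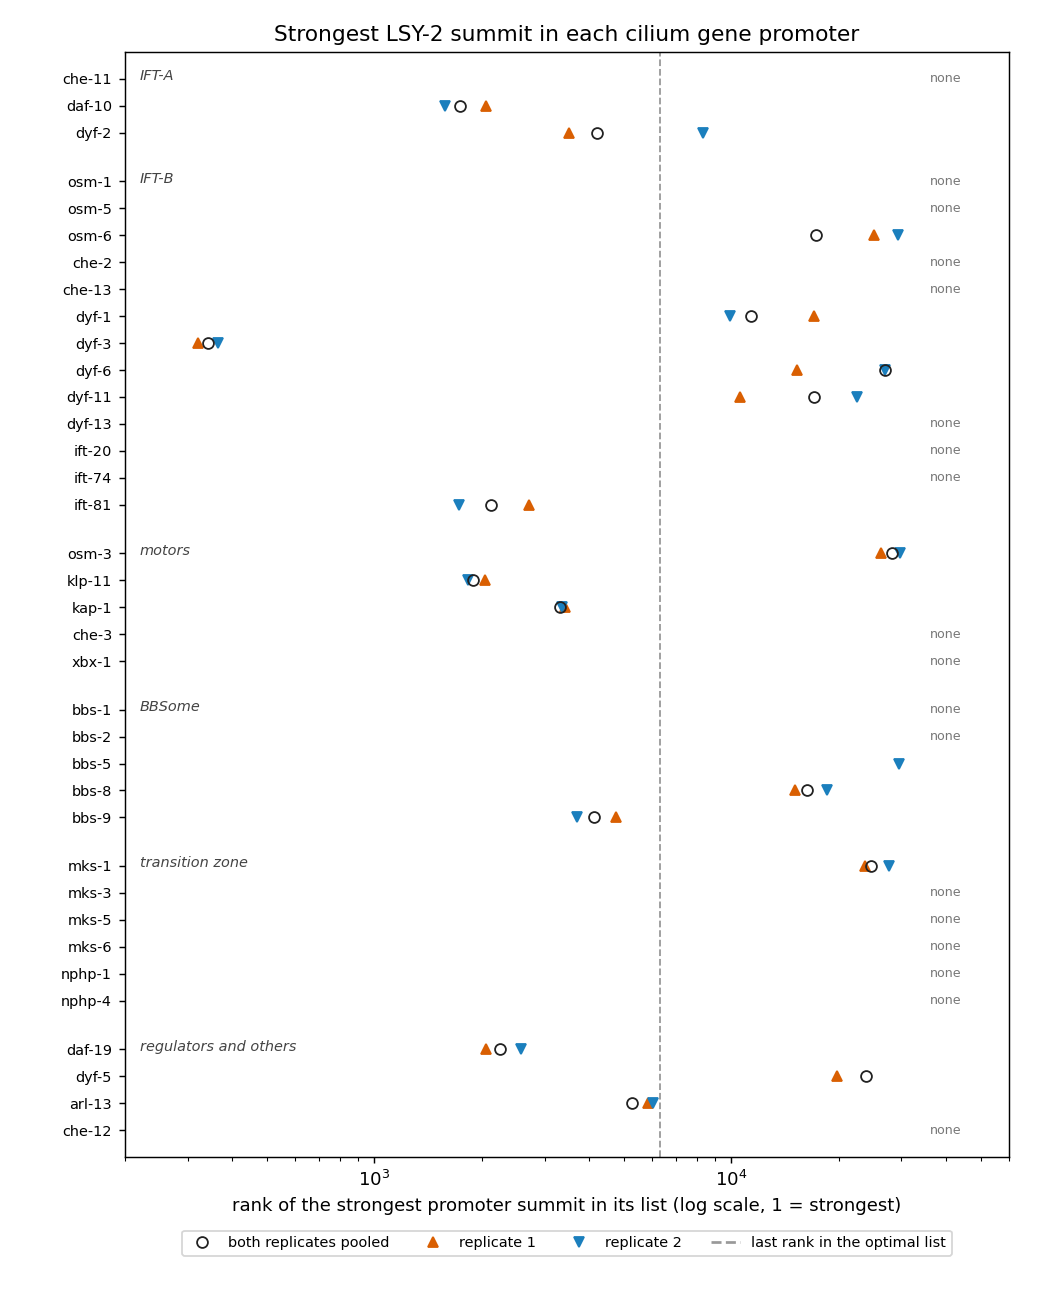
Rank of the strongest summit in the promoter window of each of the 36 cilium genes in the pooled list and in each replicate's list (horizontal log axis, rank 1 is strongest), by functional group; the dashed line is the last rank of the optimal list, 6312. The 9 genes with a peak lie left of the line in the pooled list, dyf-3 is farthest left, and 18 genes had no summit in any list.

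By functional group, IFT-A had a promoter peak at 2 of 3 genes, the motors at 2 of 5 and the regulators and other genes at 2 of 4. IFT-B had one at 2 of 13, the BBSome at 1 of 5 and the transition zone at 0 of 6. The exact 95% interval of every group included the 19.2% of all genes, and with 6 genes a count of 0 allowed a share of up to 45.9%. With groups of this size no group was told apart from another. IFT-A and IFT-B together had a peak at 4 of 16 genes (25%).

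**Figure D2:**
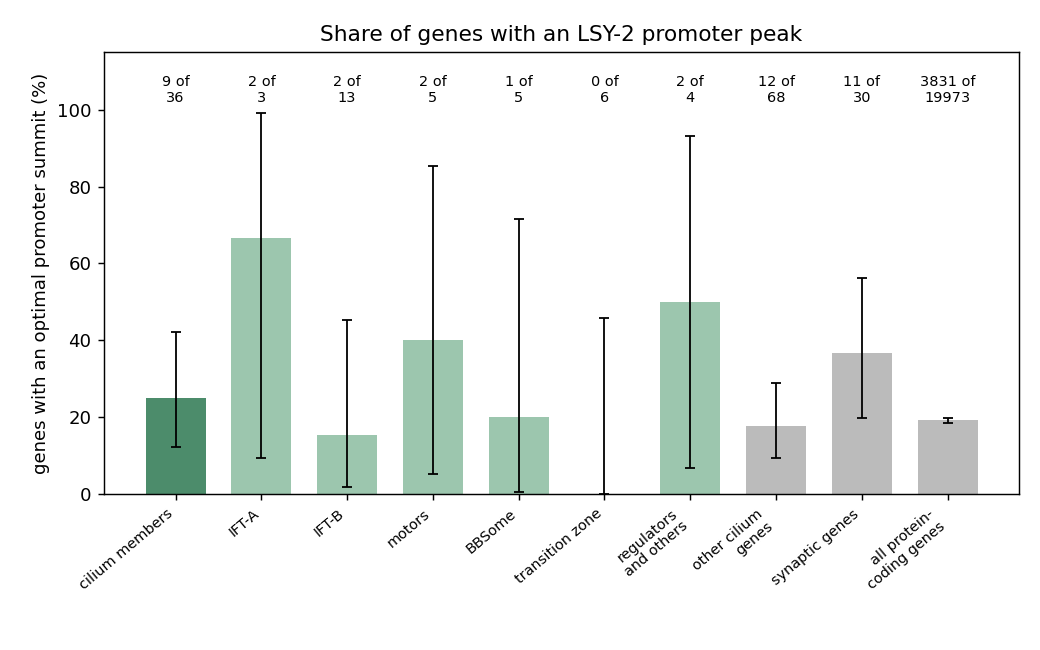
Percent of genes with an optimal LSY-2 summit in the promoter window (vertical axis) for all 36 cilium genes, their 6 functional groups, 2 other gene lists and all protein-coding genes; error bars are exact Clopper-Pearson 95% intervals and counts stand above the bars. The bar of the cilium genes is at 25% and that of all protein-coding genes at 19.2%.

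No 6-mer searched was found at more than 4 of the 9 peaks. The bases within 50 bp of each summit were searched on both strands; the 3 6-mers were taken from earlier results of these data, and their share in sequence outside peaks was not measured here. GAGAGA was found at 4 of the 9 peaks, against 22.7% of all 3054 promoter peaks, and ACGCAG at 2 of 9, against 16.2%. ACCGTA was found at 1 of 9, against 8.81%. The following runs, on ce11 and read from the RefSeq copy of this assembly, show these letters in capitals, so that the sequence near the summits of these peaks can be read.
dyf-3, chrIV:3399222-3399251, minus strand: agaagctcgtcgACCGTAgtctttggggtg
ift-81, chrX:5298300-5298329, minus strand: tgaggagtgaacGAGAGAgctgccgcagac
klp-11, chrIV:8762595-8762624, plus strand: gatagagagtttGAGAGAaggagacttctg
daf-19, chrII:10169591-10169620, plus strand: acgtgagtgagtGAGAGAgtgtctgtctgt
daf-19, chrII:10169520-10169549, minus strand: catattttatcgACGCAGcaacttagtttc
The middle of the capitals lay 11 bp from the summit at dyf-3 and 11 bp at ift-81, 47 bp at klp-11, and 39 and 32 bp at daf-19. The peaks at daf-10, dyf-2 and kap-1 held none of the 3 6-mers, while bbs-9 held ACGCAG and arl-13 held GAGAGA. GC content over the same bases had a median of 49.5% for the 9 peaks and 43.6% for all optimal peaks. The latter include peaks outside promoters, and GC content was not measured for promoter peaks alone, so the medians are not like for like.

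Among IFT-B genes, dyf-3 had the strongest peak of the whole set. The gene encodes an IFT-B protein related to mammalian CLUAP1. Its peak, at chrIV:3399030-3399465, had a score of 754 and rank 342, with the summit 16 bp upstream of the 5′ end. Replicate 1 gave it a score of 428 and rank 321 and replicate 2 a score of 324 and rank 365, so both placed it near the top of the 30000 peaks. The same summit lay 425 bp upstream of pdhb-1, a pyruvate dehydrogenase subunit gene on the opposite strand, so the peak counted for both genes.

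The other IFT-B peak was at ift-81, which encodes a protein that binds tubulin together with its partner IFT-74 in other species. Its peak at chrX:5298251-5298447 had a score of 183 and rank 2127, with its summit 236 bp upstream of the gene. It scored 81.4 in replicate 1, at rank 2712, and was placed higher in replicate 2, at rank 1727. No other protein-coding gene had its 5′ end within 2000 bp of this summit, but the annotated non-coding RNA gene F32A6.8 lay just upstream of it on the same strand. The partner gene ift-74 had no summit in its window in any list.

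The remaining 11 IFT-B genes had no promoter peak. They were osm-1, osm-5, osm-6, che-2, che-13, dyf-1, dyf-6, dyf-11, dyf-13, ift-20 and ift-74, which include classic genes for dye filling and osmotic avoidance. Of these, osm-6, dyf-1, dyf-6 and dyf-11 had weaker summits in the relaxed lists described below.

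In IFT-A, which is needed for transport back from the cilium tip to its base, daf-10 and dyf-2 had a peak and che-11 had none. The daf-10 peak at chrIV:9147016-9147255 had a score of 216 and rank 1744. The replicates gave scores of 106 and 108, with rank 2056 in replicate 1 and rank 1577 in replicate 2. Its summit lay 933 bp upstream of daf-10 but 275 bp upstream of rpb-12, an RNA polymerase subunit gene that lies between the summit and daf-10 on the same strand. It was also 324 bp upstream of aly-2 on the opposite strand, so 3 genes shared the summit.

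At dyf-2 the peak, chrIII:13687167-13687566, had a score of 89.9 and rank 4215. Its summit lay 922 bp upstream of dyf-2 and 98 bp downstream of the 5′ end of cul-2, the gene of a cullin ubiquitin ligase scaffold on the opposite strand. The replicates differed here, with a score of 63.2 and rank 3513 in replicate 1 and a score of 22.2 and rank 8334 in replicate 2. This was the only one of the 9 peaks that fell outside the 6312 strongest of a replicate. The third IFT-A gene, che-11, was the farthest of all 36 from an optimal summit, at 33805 bp.

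Kinesin-II, the heterotrimeric motor of the middle segment, had peaks at its motor subunit gene klp-11 and at its accessory subunit gene kap-1. The klp-11 peak at chrIV:8762596-8762778 had a score of 203 and rank 1888, with its summit 590 bp upstream. Its score was 106 in replicate 1 and 96.4 in replicate 2, at ranks 2046 and 1829. A further optimal summit, with a score of 169 and rank 2308, lay in an intron of klp-11, 3247 bp downstream of the 5′ end. The annotated gene F20C5.11 overlaps klp-11 on the same strand and shared the promoter summit, 660 bp from its own 5′ end.

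The kap-1 peak at chrIII:7338615-7339014 had a score of 117 and rank 3305, and its summit lay 20 bp upstream of kap-1. Replicate 1 gave it a score of 64.9 and rank 3414, and replicate 2 a score of 55.1 and rank 3368. The phosphatase gene gsp-2 ends 69 bp upstream of kap-1 on the same strand. The other kinesin-II motor gene, klp-20, had no optimal promoter summit. Neither had osm-3, the gene of the homodimeric kinesin of the distal segment, the dynein heavy chain gene che-3 or the dynein light intermediate chain gene xbx-1. At osm-3 the nearest optimal summit was 2422 bp away, at xbx-1 10828 bp and at che-3 21453 bp.

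Of the BBSome genes only bbs-9 had a promoter peak, at chrI:6923756-6924155, with a score of 92.1 and rank 4121. The score was 46.4 at rank 4754 in replicate 1 and 50.2 at rank 3708 in replicate 2, so both placed it in the weaker part of the 6312. Its summit was 983 bp upstream of bbs-9, just inside the window, and 263 bp upstream of C48B6.10, which lies 95 bp upstream of bbs-9 on the same strand. The nearest optimal summits to bbs-1, bbs-2, bbs-5 and bbs-8 were 17598, 9736, 9206 and 20239 bp away.

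None of the 6 transition zone genes of this set had an optimal summit in its window. The nearest optimal summits were 1314 bp upstream of nphp-4 and 1562 bp upstream of mks-6, and those of mks-1, mks-3, mks-5 and nphp-1 were 6669 to 24756 bp away. With the window extended to 2000 bp upstream, nphp-4, mks-6 and the IFT-B gene che-13 were added, which made 12 of 36 (33.3%), against 24.3% of all genes. The mks-6 summit, with a score of 523 and rank 548, was 340 bp from the 5′ end of xpa-1, a DNA repair gene whose end lies 18 bp upstream of mks-6. The che-13 summit, with a score of 846 and rank 294, was 808 bp from nlp-4, and the nphp-4 summit, with a score of 97.4, was 829 bp from hmp-1, the alpha-catenin gene.

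Among the remaining genes, arl-13 encodes a small GTPase of the ciliary membrane. Its peak at chrI:2064671-2065070 was the weakest of the 9, with a score of 70.5 and rank 5283. It scored 37.6 in replicate 1 and 30.4 in replicate 2, at ranks 5848 and 6045, both near the last rank of 6312. The summit lay 821 bp upstream of arl-13 and 105 bp upstream of moag-4, which ends 210 bp before arl-13 on the same strand, and it was shared by 2 other genes, moag-4 and Y37E3.1. The kinase gene dyf-5 and che-12, which encodes a conserved ciliary protein, had no promoter peak.

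**Figure D3:**
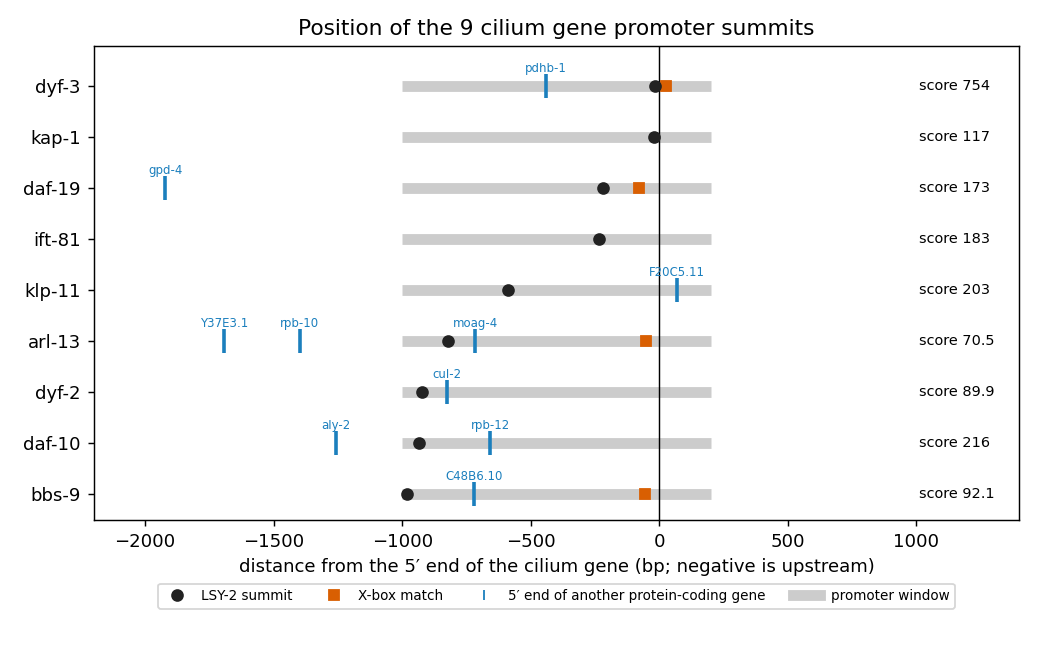
Distance in bp from the 5′ end of each of the 9 cilium genes with a promoter peak (horizontal axis, negative is upstream) to its LSY-2 summit (circles), to X-box matches (squares) and to 5′ ends of other protein-coding genes within 2000 bp of the summit (vertical marks); the grey bar is the promoter window. At arl-13, dyf-2, daf-10 and bbs-9 the summit lies 821 to 983 bp upstream, nearer to another gene's 5′ end.

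The position of the summits set the 9 genes apart into 2 kinds. At dyf-3, kap-1, daf-19, ift-81 and klp-11 the summit was nearest to the cilium gene itself, 16 to 590 bp from its 5′ end. At arl-13, dyf-2, daf-10 and bbs-9 it lay more than 800 bp upstream and nearer to another gene. Thus 4 of 9 (44.4%) were nearer to another 5′ end, against 24.3% of the 3831 genes with a promoter peak, and 4 of 9 lay more than 800 bp upstream, against 6.42%. The limit of 800 bp was set after the positions were seen, so the second contrast is a description of these genes. The first contrast also rests on only 9 genes, and neither was tested. The median distance of the nearest summit was 590 bp for the 9 genes and 221 bp for all genes with a peak.

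Genes with close neighbours held most of the peaks. Of 7 cilium genes with the 5′ end of another protein-coding gene inside their window, 6 had a peak, the exception being che-13. Of the 29 without such a neighbour, 3 had a peak (10.3%), at ift-81, kap-1 and daf-19. Over all protein-coding genes the shares were 39.7% with a neighbour and 13.6% without, so the same order was seen in the background. This split was chosen after the values were seen.

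daf-19 was examined by its transcript starts. The gene, at chrII:10157520-10169346 on the minus strand, has 5 annotated transcripts with separate 5′ ends, and different DAF-19 isoforms are known to serve ciliated and non-ciliated neurons. F33H1.1a and F33H1.1b start 1 bp apart at the first 5′ end. F33H1.1d starts 4894 bp, F33H1.1e 5770 bp and F33H1.1c 7673 bp downstream of it. An optimal summit lay in the promoter window of 2 of the 5 starts, those of F33H1.1a and F33H1.1b, and it was the same summit.

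This peak, chrII:10169459-10169696, had a score of 173 and rank 2255. Its summit lay 220 bp upstream of the first start. It ranked 2062 in replicate 1, with a score of 105, and 2581 in replicate 2, with a score of 71.6. A second optimal summit, with a score of 74.3 and rank 5041, lay 547 bp downstream of the first start, in the first intron and outside the window, and it ranked 5385 in replicate 1 and 5713 in replicate 2. The nearest gene on the other side, gpd-4, starts 1702 bp from the promoter summit.

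The 3 inner starts lay far from any optimal summit. The distance to the nearest one was 4347 bp for F33H1.1d, 5223 bp for F33H1.1e and 7126 bp for F33H1.1c, each time upstream. In the relaxed lists F33H1.1e had a summit in its window in each list. The ranks were 22835 in the pooled list, 21491 in replicate 1 and 26021 in replicate 2. The pooled summit lay 5348 bp downstream of the first start and that of replicate 1 5349 bp. That of replicate 2 lay 5804 bp downstream, in an exon, and so did not match them within 200 bp. F33H1.1c had a summit at rank 29250 in the pooled list and rank 26104 in replicate 2. These lay 7037 and 6705 bp downstream of the first start, so they did not match each other either. F33H1.1d had one in replicate 1 only, at rank 16787. Of the summits along the gene, the promoter summit had the best rank in all 3 relaxed lists, the one 547 bp downstream came next, and a pooled summit at 1460 bp, with rank 7279, was below the optimal list.

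**Figure D4:**
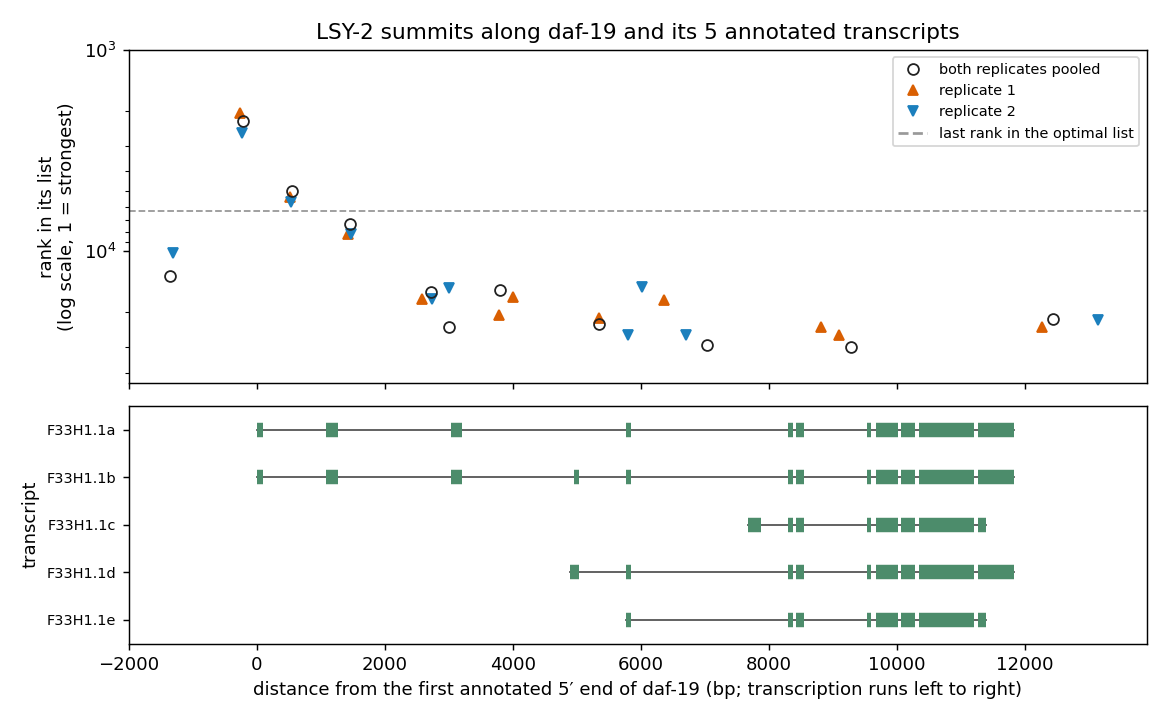
LSY-2 summits along daf-19 in the pooled list and in each replicate's list, by distance from the first annotated 5′ end (horizontal axis, bp) and by rank (vertical log axis, strongest at the top), above the exons of the 5 annotated transcripts; the dashed line is rank 6312. The pooled summits 220 bp upstream and 547 bp downstream lie above the line, and those in the windows of F33H1.1e and F33H1.1c lie far below it. The window of F33H1.1d holds no pooled summit.

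Further cilium genes had a summit only below the optimal list. Each optimal peak is the pooled peak of the same rank, so by construction a pooled summit outside it cannot score above 58. The relaxed lists held 30000 peaks each, called on each replicate and on both pooled. The pooled one is labelled by the authors as peaks and background, so a summit there need not be a binding site. In the pooled list 17 of 36 cilium genes had a summit in the window (47.2%), against 34.7% of all genes, and 8 of these were not in the optimal list. Each replicate's list also gave 17 of 36, against 35.9% of all genes in replicate 1 and 35.5% in replicate 2. The 5 strongest pooled summits of the genes without an optimal one had scores of 30.9 at dyf-1, 20.6 at bbs-8, 19.5 at dyf-11, 19.2 at osm-6 and 12.6 at dyf-5, against 58 as the lowest score of the optimal list. Their pooled ranks were 11361, 16339, 17057, 17325 and 23914, and dyf-5 had no summit in replicate 2. The others were osm-3, dyf-6 and mks-1, and bbs-5 had a summit in replicate 2 only, at rank 29511.

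At 18 cilium genes no list held a summit in the window. They were che-11, osm-1, osm-5, che-2, che-13, dyf-13, ift-20, ift-74, che-3, xbx-1, bbs-1, bbs-2, mks-3, mks-5, mks-6, nphp-1, nphp-4 and che-12. Over the 27 genes without a promoter peak the median distance to the nearest optimal summit was 9206 bp, against 10802 bp for the 16142 protein-coding genes without one.

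X-box matches were looked for because DAF-19 is itself one of the genes and its element marks many of the others. A 14-base X-box consensus was written down from knowledge of the field, not read from a motif file, and searched on both strands of the same 1201 bp windows. Such a consensus was drawn from genes of this kind, so its presence here is no independent result, and the counts depend on its exact form. It was found at 19 of 36 cilium genes (52.8%), against 237 of 19973 protein-coding genes (1.19%). A wider form, chosen after seeing the data, was found at 20 of 36 cilium genes (55.6%), against 782 protein-coding genes (3.92%). All 5 BBSome genes and 9 of 13 IFT-B genes held a match, but 0 of 3 IFT-A genes did, and the motors and the transition zone had 1 each, at xbx-1 and mks-6. The 20 matches lay within 193 bp upstream and 66 bp downstream of the 5′ end. Of the cilium genes with an LSY-2 promoter peak, 4 of 9 held a match, against 15 of 27 of those without.

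The matches below, on ce11 and on the strand of the gene from the RefSeq copy, are those at the 2 genes where an optimal LSY-2 summit and the X-box were closest and at 6 genes without a promoter peak, with the 14 bases in capitals. They show that the element was present at genes with and without an LSY-2 peak.
dyf-3, chrIV:3399190-3399219, minus strand: tgcagggaGTTTCTATGGGAACggaggaaa
daf-19, chrII:10169409-10169438, minus strand: caattttgGTTTCCATGGAAACtacttcca
ift-74, chrII:6679962-6679991, plus strand: tattacatGTTTCCATGGAAACggtgttcg
osm-5, chrX:2984155-2984184, plus strand: cttacataGTTACTATGGCAACgctccgct
osm-6, chrV:11927485-11927514, minus strand: atccacatGTTACCATAGTAACcactcatt
che-2, chrX:481313-481342, plus strand: gccagctgGTTGTCATGGTGACtgctcgcg
xbx-1, chrV:14980267-14980296, plus strand: gaacgcccGTTTCCATGGTAACcgtcattt
bbs-8, chrV:6765080-6765109, minus strand: cgtgccctGTACCCATGGCAACgacacgtc
The capitals of ift-74 and daf-19 are the same 14 bases, and daf-19 had an LSY-2 peak while ift-74 had none. The optimal summit lay 43 bp from the X-box at dyf-3, 143 bp at daf-19, 769 bp at arl-13 and 927 bp at bbs-9. At arl-13 and bbs-9 a weaker pooled summit was much nearer, 48 and 36 bp from the X-box, with scores of 27.6 and 31.6. In all, 5 of the 19 cilium genes with an X-box had a pooled summit within 100 bp of it, the others being dyf-3, dyf-11 at 11 bp and bbs-8 at 81 bp, against 8.26% of the other protein-coding genes with a match. The optimal list gave 1 of 19, at dyf-3, against 0.917%. All matches at cilium genes lay close to the 5′ end, and where those of the other genes lay was not compared. These shares are therefore not like for like, and their difference was not tested.

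The genes of 2 further lists were set beside the 36. Of 68 other cilium, basal body and ciliary traffic genes, 12 had a promoter peak (17.6%, exact 95% interval 9.47 to 28.8), against 19.2% of all protein-coding genes. The strongest were at tmem-107, a transition zone gene, with a score of 4241 and rank 38, and at sas-6, a centriole assembly gene, with a score of 2896 and rank 69. The others were the centriole genes sas-4, spd-2 and hyls-1, the transition zone gene tctn-1, the IFT-A gene ift-43, the dynein genes dlc-1 and dyci-1, and rpi-2, rgef-1 and ttll-4. Centriole and cytoplasmic dynein genes are also used in dividing cells, and whether this bears on their peaks was not tested. At ift-43, tctn-1, sas-4, sas-6 and spd-2 the strongest summit was nearer to another protein-coding gene. None of the 4 other BBS genes had a peak, while 6 of the 20 other transition zone and basal body genes had one (30%).

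Of 30 synaptic vesicle and release genes 11 had a promoter peak (36.7%, exact 95% interval 19.9 to 56.1), against 19.2% of all protein-coding genes. They were snb-1, unc-18, unc-104, unc-11, unc-26, sng-1, syd-2, ric-19, elks-1, tom-1 and egl-21. In these 11 the summit was 64 to 454 bp upstream and nearest to the synaptic gene itself. Among the cilium genes with a peak 5 of 9 were nearest to their own summit, and among all protein-coding genes 2900 of 3831. Scores ran between 61.8 at unc-11 and 305 at ric-19. The interval of the cilium genes, 12.1 to 42.2%, overlapped that of the synaptic genes, and no difference between the lists was tested.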

How the data were processed

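LSY-2 ChIP-seq was measured in 2 biological replicates of L2 larvae. Relaxed peak lists for each replicate and for both pooled, and an optimal list made from them by the irreproducible discovery rate procedure, were deposited by the authors, per the deposited file descriptions. Each peak has a score from the authors' peak caller, and ranks use it, because the deposited −log10 of a q-value was 4.26 in 100% of optimal peaks. Each optimal peak is the pooled peak of the same rank. The caller, aligner and threshold are not given in the sources used here. All 4 lists on ce11 (WBcel235) were used.

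Summits are the peak start plus the summit column. Genes and 5′ ends came from Ensembl release 115 and sequence from RefSeq; 6 symbols of the other cilium list matched no gene. Summits within 200 bp matched between lists. Intervals are exact Clopper-Pearson, and no set test was made. Python 3.11.15 and scipy 1.17.1 were used, and the assignment was tested on simulated summits. The members, gene lists, 6-mers and tests were chosen with earlier results of these data known. By rule, every member with a peak was described, the 5 strongest relaxed summits were named, and listed genes with a peak and genes sharing a member's summit were named. Alternatives were each replicate alone, the strongest 50% of peaks, other windows, the nearest 5′ end only, all transcript starts and peak intervals in place of summits.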

Additional observations from a re-analysis of the deposited data

How the results depend on the processing

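Of 90 alternative values, 71 stayed within 1.5 times the reported count and 19 did not. With the strongest 50% of peaks, 5 cilium genes had a promoter peak (13.4% of all genes), with 1 in IFT-A, 1 among the motors, 0 in the BBSome and 1 among the regulators and others, and 7 synaptic genes had one. In the window from 500 bp upstream to 100 bp downstream 4 cilium genes had a peak (15.2% of all genes), with 0 in IFT-A, 1 among the motors, 0 in the BBSome and 1 among the regulators and others. With each summit given to the nearest 5′ end only, the count was 5, with 0 in IFT-A, 0 in the BBSome and 1 among the regulators and others, because the summits of daf-10, dyf-2, bbs-9 and arl-13 lay nearer to another gene. The window of 2000 bp upstream gave 2 transition zone genes and 17 synaptic genes.

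The strongest 6312 peaks of replicate 2 alone gave 8 cilium genes (19.2% of all genes) and those of replicate 1 alone gave 9 (19.3% of all genes), and the count for IFT-A ran from 1 to 2, since dyf-2 was lost without replicate 1. Both replicates ranked 8 of the 9 promoter peaks within 6312 (88.9%, against 79.3% of all optimal peaks). With only such peaks, an alternative chosen after seeing the data, 8 cilium genes had a peak, against 3402 of 19973 protein-coding genes, and IFT-A had 1. All transcript starts and peak intervals in place of summits each left the count at 9 (20.6% and 20.5% of all genes). The 2 daf-19 starts with a peak stayed at 2 in every alternative run for them. The wider X-box consensus gave 20 cilium genes, with 3.92% of all genes in place of 1.19%, and the narrower window, also chosen after seeing the data, gave 19. No paired analysis was possible because the study has 1 group. Read depth is unknown, so how it limits the weak summits was not tested.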

Other observations

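Optimal summits also lay inside 4 of the cilium genes, outside their promoter windows and all in introns. Besides those at klp-11 and daf-19, there was one 1522 bp downstream of the 5′ end of che-13, with a score of 66.2 and rank 5582, and one 7452 bp downstream of that of nphp-4, with a score of 76.2 and rank 4925.

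The cilium genes with a promoter peak were spread over the chromosomes. There were 3 of 5 on IV (17.8% of all protein-coding genes on IV), 2 of 4 on III (31.3%), 2 of 9 on I (28.2%), 1 of 6 on II (18.9%), 1 of 6 on X (14.2%) and 0 of 6 on V (11.5%).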
